A study of Mus musculus with 12 samples.

Results

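Peaks of the histone variant H2A.Z that lie inside gene bodies were examined in the nucleus accumbens of mice, the ventral part of the striatum, which serves reward and motivation. Members were all peaks on chromosomes 1 to 19 to which the authors' annotation gave the region class gene body, which is the stretch of a transcript more than 3000 bp from its start. They numbered 6627 of the 59069 peaks in 4 deposited peak lists. The saline-cocaine (SC) list held 3228 gene body peaks, the cocaine-saline (CS) list 318, the cocaine-cocaine (CC) list 211 and the saline-saline (SS) list 2870. No measured value entered the choice of members.

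H2A.Z replaces the canonical histone H2A in a subset of nucleosomes. Exchange complexes of the SRCAP and p400 families load it mainly around transcription start sites and at enhancers, and in neurons its removal and replacement at promoters accompany activity-dependent transcription. Inside gene bodies it is usually sparse, so that a peak far from an annotated start can mark an enhancer, another start site or a region of isolated enrichment.

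Each condition joins an earlier and a later treatment and comprised 3 samples of nucleus accumbens tissue. SC mice received saline and then cocaine and their list is called acute in the labels, CS mice received cocaine and then saline (withdrawal), CC mice received cocaine both times (challenge), and SS mice received saline both times. Chromatin was crosslinked with formaldehyde, sheared by sonication and precipitated with an antibody against H2A.Z. Dose, interval, sex, strain, age and batch are not given in the labels, and total histone H3, profiled alongside, was not analysed here. Peaks were deposited as 1 list per condition, without values per sample, and the sources used here do not say whether reads were pooled or calls merged. The spread between samples is therefore unknown, and no difference between conditions carries a p-value. Intervals are 95% exact (Clopper-Pearson) binomial intervals and reflect counting error alone. Bulk tissue was used, so fewer cells carrying a peak and less H2A.Z per cell cannot be told apart.

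CS and CC stood apart from SC and SS as whole lists. SC held 22584 peaks on chromosomes 1 to 19, CS 6238, CC 4670 and SS 24190. The narrowest gene body peak was 315 bp in SC, 69 bp in CS, 67 bp in CC and 321 bp in SS. The weakest gene body peak had a q-value of 0.000572 in SC, 0.0510 in CS, 0.0500 in CC and 0.000286 in SS, as listed by the authors. Depth per sample was not analysed here, and the part of list length, peak width and q-value in the comparisons below was tested only by the alternative settings given with them.

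The class was checked against the annotated positions. The nearest gene body peak lay 3015 bp from the start of its host gene in SC, 3015 bp in CS, 3003 bp in CC and 3010 bp in SS. Just outside the limit, the farthest peak of the promoter class that ends there lay 2999 bp from a start in SC, 2990 bp in CS, 2975 bp in CC and 2999 bp in SS. A peak could also lie past the annotated end of the transcript, by up to 996.5 bp in SC, and 156 of 3228 SC peaks (4.83%), 22 of 318 CS peaks (6.92%), 15 of 211 CC peaks (7.11%) and 148 of 2870 SS peaks (5.16%) did so. Exon and intron positions inside the host genes were not analysed here. To ask whether gene body peaks sat at the start of another annotated gene, peaks were compared with the RefSeq start windows of assembly GRCm38.p6, which run from 250 bases before to 50 bases after a start. The files use mm10, the same assembly: of 63 microRNA genes present in both, 62 had identical start and end. A start window was touched by 57 of the 3106 compared SC gene body peaks (1.84%, interval 1.39 to 2.37%), 2 of 313 CS peaks (0.639%), 2 of 202 CC peaks (0.990%) and 55 of 2769 SS peaks (1.99%, 1.50 to 2.58%). Promoter peaks within 1 kb touched a window in 67.4% of cases in SC, 27.7% in CS, 25.2% in CC and 67.8% in SS. Of the 55 SS gene body peaks at a window, 10 touched a window of their own host gene, which for those hosts is another annotated start inside the body.

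Gene body peaks of both SC and SS covered 10 RefSeq start windows in full. The sequences of 5 of them are shown because they are the internal start sites at which the class meets a promoter of another kind: the 3 with the highest SS fold enrichment, the one inside a presynaptic gene, and the one with the fewest CpG dinucleotides. Each is the RefSeq window in assembly GRCm38.p6, read 5′ to 3′ along the strand of its own gene, with every CG (CpG) in capitals. The Ppp6r2 window, a regulatory subunit of protein phosphatase 6 being its product, lies at chr15:89211309-89211608 (plus strand) within the host transcript Gm26798. Gm13205 starts at chr4:148952273-148952572 (minus strand) within Casz1, a zinc finger transcription factor gene. The Ethe1 window, for a mitochondrial sulfur dioxygenase, lies at chr7:24593658-24593957 (plus strand) within the transcript that the files also call Ethe1. Gm39195 starts at chr8:71629269-71629568 (plus strand) within Unc13a, which encodes the synaptic vesicle priming factor Munc13-1. Gm46266 starts at chr11:5115268-5115567 (plus strand) within Emid1, an extracellular matrix gene.
Ppp6r2: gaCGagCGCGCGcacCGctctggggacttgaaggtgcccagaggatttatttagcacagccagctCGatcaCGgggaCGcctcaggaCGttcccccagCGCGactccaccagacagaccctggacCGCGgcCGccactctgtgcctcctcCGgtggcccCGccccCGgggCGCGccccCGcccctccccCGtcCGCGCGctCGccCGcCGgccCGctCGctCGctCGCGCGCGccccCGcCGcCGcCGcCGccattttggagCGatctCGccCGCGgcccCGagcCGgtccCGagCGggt
Gm13205: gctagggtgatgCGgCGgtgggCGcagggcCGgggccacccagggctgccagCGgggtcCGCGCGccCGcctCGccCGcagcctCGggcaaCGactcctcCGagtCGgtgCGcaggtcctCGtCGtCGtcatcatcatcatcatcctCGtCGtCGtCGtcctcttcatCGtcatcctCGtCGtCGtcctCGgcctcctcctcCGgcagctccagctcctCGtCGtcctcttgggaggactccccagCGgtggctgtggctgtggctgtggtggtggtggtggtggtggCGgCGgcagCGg
Ethe1: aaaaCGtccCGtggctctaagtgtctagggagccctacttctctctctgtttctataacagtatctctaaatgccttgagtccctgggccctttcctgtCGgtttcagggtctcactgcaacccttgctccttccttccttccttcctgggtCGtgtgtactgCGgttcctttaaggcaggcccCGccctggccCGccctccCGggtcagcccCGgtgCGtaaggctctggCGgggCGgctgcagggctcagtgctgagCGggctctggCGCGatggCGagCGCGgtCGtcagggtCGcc
Gm39195: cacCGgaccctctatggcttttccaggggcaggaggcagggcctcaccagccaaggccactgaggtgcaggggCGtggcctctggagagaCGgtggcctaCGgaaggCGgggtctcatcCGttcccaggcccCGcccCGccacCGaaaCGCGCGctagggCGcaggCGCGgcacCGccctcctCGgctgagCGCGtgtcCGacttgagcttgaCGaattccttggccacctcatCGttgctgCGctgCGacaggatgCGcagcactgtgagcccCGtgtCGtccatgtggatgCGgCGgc
Gm46266: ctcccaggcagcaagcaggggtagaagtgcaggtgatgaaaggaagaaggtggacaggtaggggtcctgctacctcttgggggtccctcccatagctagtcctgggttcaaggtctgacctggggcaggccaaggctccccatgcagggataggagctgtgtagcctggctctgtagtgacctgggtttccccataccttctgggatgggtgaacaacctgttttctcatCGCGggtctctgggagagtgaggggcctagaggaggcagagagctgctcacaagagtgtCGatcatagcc

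The Ppp6r2 window held 47 CpG, Gm13205 35, Ethe1 20, Gm39195 29 and Gm46266 3. All RefSeq windows together had a median of 7 CpG, and 43.5% of 32851 windows held 10 or more. Windows touched by gene body peaks resembled this background, with a median of 9 CpG and 41.4% holding 10 or more in SC, and a median of 9 CpG and 47.7% in SS. Windows touched by promoter peaks within 1 kb had a median of 24 CpG in SC and 23 in SS, and 91.5% (SC) and 90.5% (SS) held 10 or more. The peak over the Ppp6r2 window had a fold enrichment of 11.0 in SC (chr15:89211184-89212055, mm10) and 9.75 in SS, at 3.39 kb and 3.38 kb from the start of its host. The peak inside Casz1 had a fold of 10.6 in SC and 9.57 in SS and lay 148 kb into the host in both lists. Ethe1 had 11.3 in SC and 8.39 in SS, Unc13a 4.50 in SC and 4.95 in SS, and Emid1 4.17 in SC and 3.12 in SS. None of these 5 windows was touched in CS or CC. A count of CG letters describes the window and says nothing about what binds there.

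Gene body peaks made up 14.3% of SC peaks (interval 13.8 to 14.8%), 5.10% of CS peaks (4.57 to 5.67%), 4.52% of CC peaks (3.94 to 5.15%) and 11.9% of SS peaks (11.5 to 12.3%). Among peaks with −log10 q of 5 or more the order was the same, at 13.7% in SC, 9.74% in CS, 9.68% in CC and 11.6% in SS. The order changed at equal list length. When each list was cut to its 4670 strongest peaks, the length of the shortest, the gene body share was 2.78% in SC, 4.99% in CS, 4.52% in CC and 2.70% in SS, so that the cocaine-first lists then had the higher share. The 100 strongest peaks of a list included 4 gene body peaks in SC, 27 in CS, 29 in CC and 8 in SS. Promoter peaks within 1 kb filled 89 of those 100 places in SC, 12 in CS, 13 in CC and 87 in SS. Intergenic peaks filled 3 in SC, 39 in CS, 37 in CC and 3 in SS, so the larger place of gene body peaks among the strongest CS and CC peaks was shared by that class.

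Gene body peaks were narrower than promoter peaks within 1 kb in each list, by a wide margin in SC and SS only. Their median width was 481 bp in SC, 104 bp in CS, 98 bp in CC and 495 bp in SS, against 902, 111, 108 and 967 bp for promoter peaks of the same lists. Together they covered 1.77 Mb in SC, 0.0386 Mb in CS, 0.0252 Mb in CC and 1.60 Mb in SS. Median fold enrichment, the authors' ratio over background, was 3.41 in SC, 4.72 in CS, 5.08 in CC and 3.53 in SS. These medians stood at percentile 24.5 of all SC peaks, 56.2 of CS peaks, 61.1 of CC peaks and 28.6 of SS peaks. Fold values are used here to rank peaks within a list and not as a measure of change between lists.

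**Figure D1:**
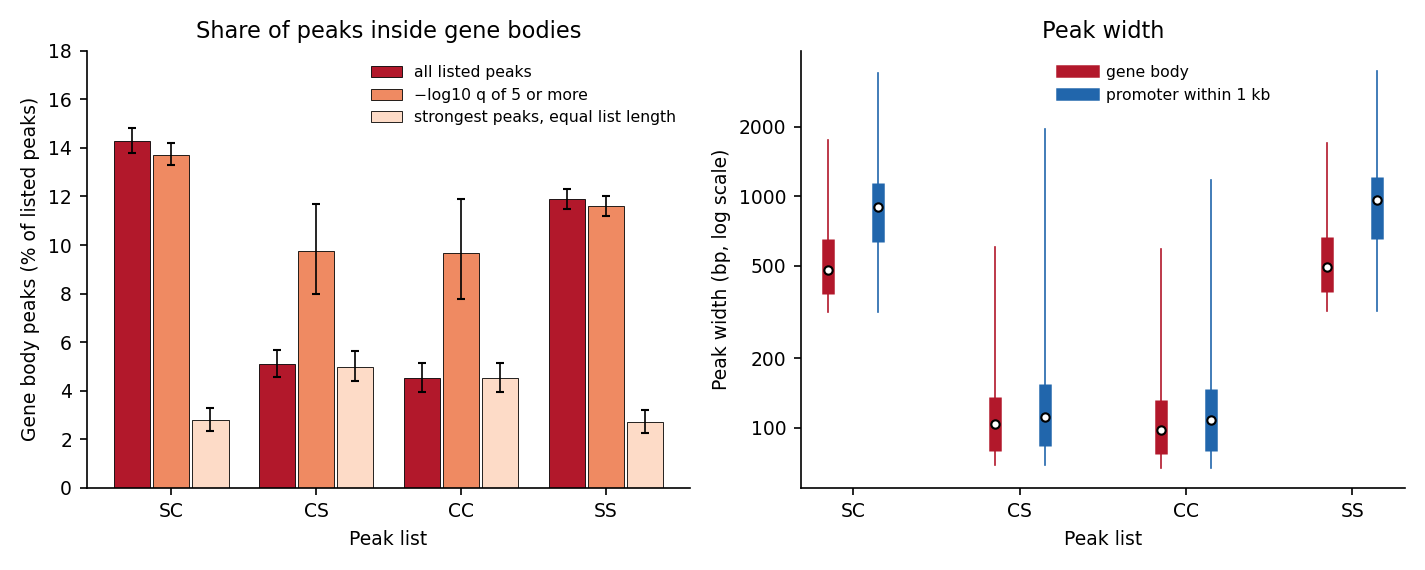
Left, gene body peaks as a percentage of the peaks on chromosomes 1 to 19 in the SC, CS, CC and SS lists, for all listed peaks, for peaks with −log10 q of 5 or more, and for each list cut to its 4670 strongest peaks, with 95% exact binomial intervals as error bars. The share is 14.3% in SC and 11.9% in SS with all peaks and 2.78% in SC and 2.70% in SS at equal length, while CS has 5.10% with all peaks, 9.74% among peaks with −log10 q of 5 or more and 4.99% at equal length, and CC 4.52%, 9.68% and 4.52%. Right, peak width in bp on a log scale for gene body peaks and promoter peaks within 1 kb (dot, median; thick bar, middle quartiles; thin line, range), with gene body medians of 481, 104, 98 and 495 bp.

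SC against SS sets cocaine given after saline beside saline given both times. Of 3228 SC gene body peaks, 1615 (interval 48.3 to 51.8%) had no overlapping SS peak of any class, where 18.7% of all SC peaks had none. In the opposite direction, 1263 of 2870 SS gene body peaks (44.0%, 42.2 to 45.8%) had no overlapping SC peak, where 24.4% of all SS peaks had none. Gene body peaks thus lacked a partner more often than the lists as a whole in both directions. For promoter peaks within 1 kb the shares were 5.66% in SC and 10.8% in SS, and for intergenic peaks 36.5% in SC and 50.2% in SS. The SC gene body peaks without an SS partner were weaker and narrower, with a median fold of 3.15 and width of 410 bp, than those with one, with a fold of 3.82 and a width of 591 bp.

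**Figure D2:**
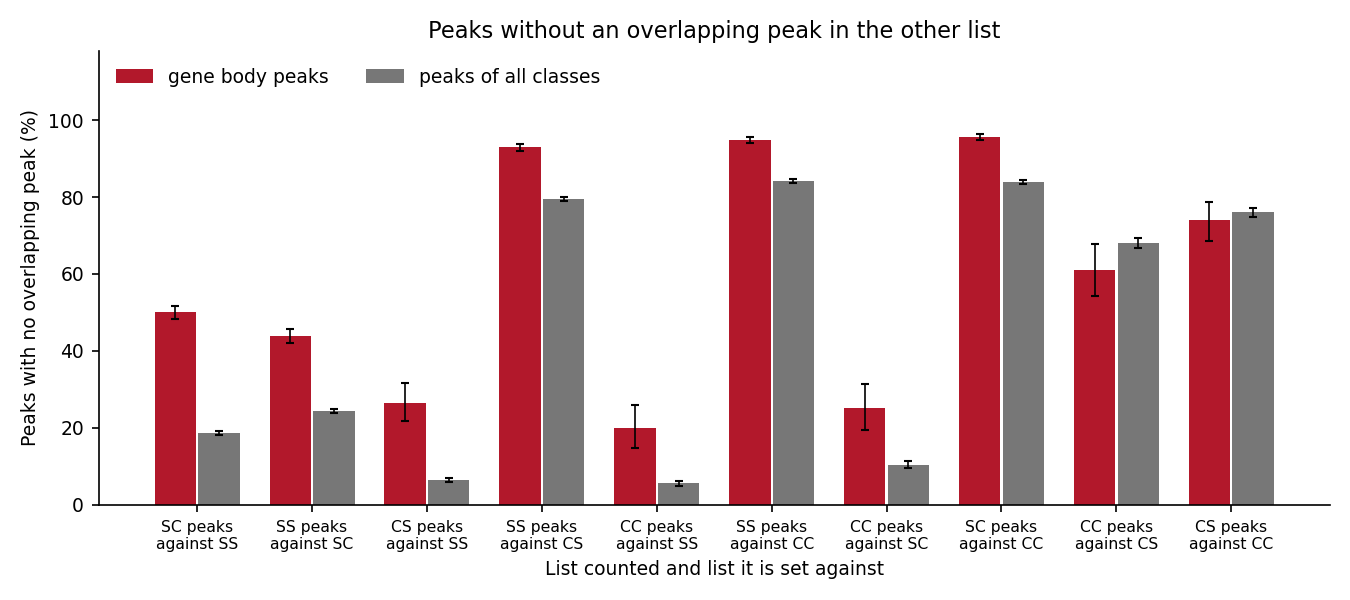
Percentage of gene body peaks, and of peaks of all classes, with no overlapping peak of any class (at least 1 bp) in the other list, for 5 pairs of lists in both directions, with 95% exact binomial intervals. SC gene body peaks lack an SS partner in 1615 of 3228 cases, against 18.7% for all SC peaks, and the gene body bar is the higher one in each pair except CC with CS.

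In CS and CC the median fold of gene body peaks was not below that of promoter peaks within 1 kb (4.72 against 4.68 in CS, 5.08 against 4.78 in CC). It was lower in SC (3.41 against 6.09) and in SS (3.53 against 5.32). Overlap was therefore also read within 5 equal groups of all SS peaks by fold enrichment. From the weakest to the strongest group, SC peaks overlapped 41.0%, 50.6%, 68.9%, 89.7% and 100% of the SS gene body peaks. The same groups of SS promoter peaks within 1 kb were overlapped in 55.5%, 71.1%, 87.9%, 97.4% and 100% of cases. Intergenic SS peaks in these groups were overlapped in 35.5%, 47.6%, 67.1%, 91.7% and 100% of cases. At like strength the gene body peaks were thus matched less often than promoter peaks in the lower 4 groups, where the intervals did not overlap. Gene body and intergenic intervals overlapped in all but the weakest group, and all 131 gene body peaks in the strongest group had an SC partner. For CS the gene body shares were 1.36%, 3.44%, 10.9%, 31.5% and 22.1%, against 7.93%, 10.4%, 25.8%, 42.5% and 28.2% for promoter peaks. For CC the gene body shares were 0.834%, 1.77%, 9.29%, 20.7% and 19.1%, against 6.02%, 6.75%, 20.8%, 32.7% and 23.1% for promoter peaks. In CS and CC the strongest SS group was matched no more often than the one below it, for either class.

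**Figure D3:**
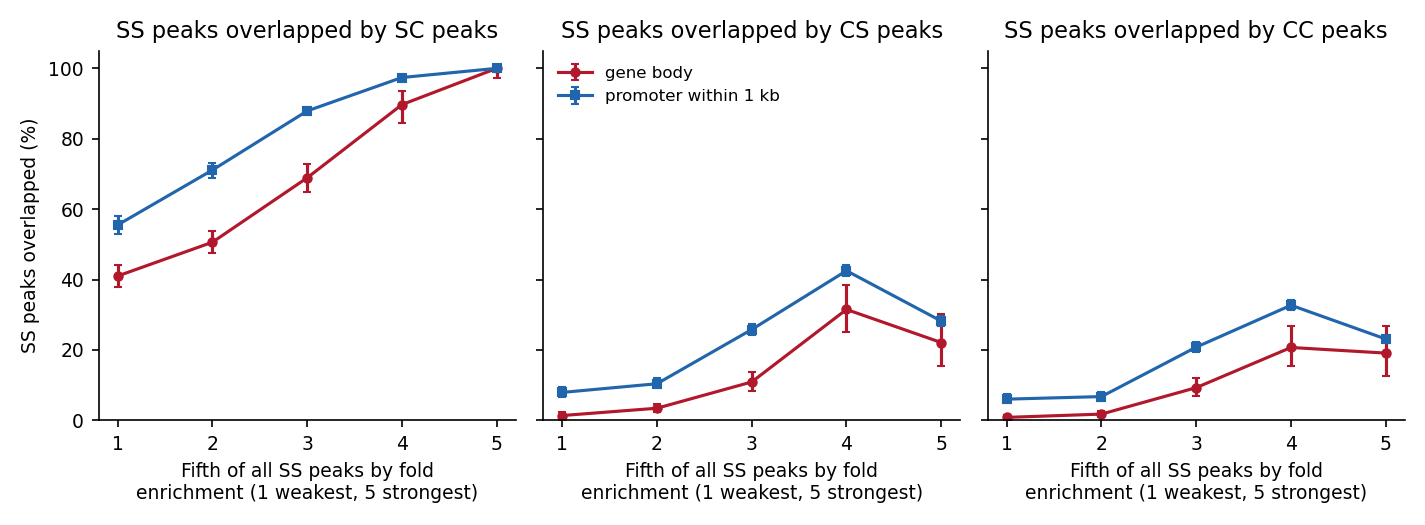
Percentage of SS gene body peaks and of SS promoter peaks within 1 kb that any SC, CS or CC peak overlaps, in 5 equal groups of all SS peaks by the authors' fold enrichment (1 weakest, 5 strongest), with 95% exact binomial intervals. Overlap by SC reaches 100% in the strongest group for both classes, and overlap by CS peaks at 31.5% of gene body peaks in the group below it.

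The strongest SC gene body peaks without an SS partner had folds of 5.04 to 6.01, far below the SC maximum of 16.5. Umodl1 led them with 6.01 (chr17:30990044-30990464, mm10), 35.6 kb from its start. Tusc3, which encodes a subunit of the oligosaccharyltransferase complex, had 5.72 in SC and a CS peak of 5.35 at the same place. Ctss, the lysosomal protease cathepsin S of microglia and macrophages, had 5.43, and Ncan, the brain matrix proteoglycan neurocan, had 5.27 at 8.80 kb from its start. Senp7, a SUMO protease, had 5.22 and Sptbn4, the spectrin of axon initial segments, had 5.14. The others were Hectd4 (5.18), Tango6 (5.14), Zfp174 (5.06) and D5Ertd579e, which had 5.04 in SC and peaks in CS and CC too. Only the Tusc3 and D5Ertd579e peaks among these 10 had a partner in any other list.

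In SS, the strongest gene body peaks without an SC partner had folds of 5.08 to 6.09. Fbln7, a fibulin of the extracellular matrix, led with 6.09 (chr2:128892171-128892683, mm10). Msrb3, a methionine sulfoxide reductase, had 5.80 and a width of 1235 bp, and Egln3, an oxygen-sensing prolyl hydroxylase, had 5.61. Pde10a, the cyclic nucleotide phosphodiesterase typical of medium spiny neurons, had 5.29 in SS at 66.3 kb from its start, while its only SC gene body peak had 3.32 at 121 kb. Atp2c2 (5.42), Mmp25 (5.32), Ttn (5.22), Got1l1 (5.09), Ccdc162 (5.08) and Ect2l (5.08) followed. Msrb3 alone among these 10 had a partner elsewhere, a CS peak of fold 4.35.

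The strongest gene body peaks of SC and SS were largely the same places. Gata4, a transcription factor gene of heart and endoderm, held the strongest SC peak with 16.5 in SC and 14.1 in SS (chr14:63255537-63256300 in SC, mm10), 15.2 kb from its start. Cdk8, the kinase of the Mediator complex, held the strongest SS peak with 12.9 in SC and 15.7 in SS. Tal1, a haematopoietic factor, had 16.1 in SC and 11.3 in SS, and Klhl31 had 16.0 in SC and 11.2 in SS. Vgll2, a cofactor of TEAD proteins, had 15.8 in SC and 9.74 in SS, and Pax3, a factor of neural crest and muscle precursors, had 15.8 in SC and 8.13 in SS. Neuronal genes with strong peaks in both lists were Srcin1, a synaptic inhibitor of Src kinase (11.2 in SC and 13.3 in SS), Zfp536, a zinc finger repressor (13.6 in SC and 12.7 in SS), Phactr1, an actin and phosphatase regulator (12.9 in SC and 12.1 in SS), and Cacna1a, the pore of the P/Q-type calcium channel (12.2 in SC, and a partner in SS, at 144 kb from the start). Ryr1, the calcium release channel of skeletal muscle, had 14.6 in SC and 12.1 in SS. None of Gata4, Tal1, Vgll2, Pax3, Srcin1, Zfp536, Phactr1, Cacna1a and Ryr1 had a CS or CC peak at these places, and Klhl31 had one of fold 4.41 in CS.

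CS against SS sets cocaine followed by saline beside saline given both times. Of 318 CS gene body peaks, 84 (26.4%, interval 21.7 to 31.6%) had no overlapping SS peak, where 6.48% of all CS peaks had none. Of 2870 SS gene body peaks, 2668 (93.0%, 92.0 to 93.9%) had no overlapping CS peak, where 79.6% of all SS peaks and 91.4% of intergenic SS peaks had none. Unlike in SC, the CS gene body peaks without an SS partner were not the weaker ones, with a median fold of 5.02 against 4.68 for those with a partner. Intergenic CS peaks were alike in this (5.04 against 4.68), while CS promoter peaks within 1 kb were not (4.39 against 4.68). The gene body peaks without a partner were narrower, at 84.5 bp against 110.5 bp. When SS was cut to its 6238 strongest peaks, the length of CS, CS peaks overlapped 25.1% of the 171 SS gene body peaks that remained, and 29.7% of all SS peaks. In the opposite direction, only 15.7% of CS gene body peaks and 35.3% of all CS peaks then had an SS partner, against 73.6% and 93.5% with the whole lists.

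Strong CS gene body peaks without an SS partner recurred in CC. D5Ertd579e had 13.05 in CS and a partner in CC, and its SC peak had a fold of 5.04. Hira, the chaperone of histone H3.3, had 11.0 in CS and 9.79 in CC at 81.4 kb from its start, and Efna5, an ephrin ligand of axon guidance, had 9.37 in CS and 9.43 in CC at 144 kb, with no SC or SS peak at either place. Pcnx2 had 9.03 in CS and 9.79 in CC. Phactr2 (8.70), Dock3, a Rac activator of neurons (8.03), and Sp140, a chromatin reader of immune cells (7.36), had a peak in CS alone. Sfi1 and Tmem267, which held 7 CS gene body peaks each, were also among the 10. SS gene body peaks without a CS partner were led by Gata4, Srcin1, Fbrsl1 (13.3 in SS), Osbp2, Ccm2l (12.7), Zfp536, Neurl1a (12.6), Phactr1, Ryr1 and Cacna1a, all of which had an SC partner.

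CC against SS sets cocaine given both times beside saline given both times. Of 211 CC gene body peaks, 42 (19.9%, interval 14.7 to 25.9%) had no overlapping SS peak, where 5.59% of all CC peaks had none. The share was 17.2% for intergenic CC peaks and 21.8% for CC promoter peaks 1 to 3 kb from a start. Of the SS gene body peaks, 2725 of 2870 (94.9%, 94.1 to 95.7%) had no overlapping CC peak, where 84.2% of all SS peaks had none. The CC gene body peaks without an SS partner had a median fold of 6.39, against 5.06 for those with one. Intergenic CC peaks had 6.44 against 4.85, and CC promoter peaks within 1 kb had 4.66 against 4.78. At equal list length 14.2% of CC gene body peaks and 27.0% of all CC peaks had an SS partner, against 80.1% and 94.4% with the whole lists, and CC peaks overlapped 18.3% of SS gene body peaks and 23.1% of all SS peaks. D5Ertd579e was among the strongest CC gene body peaks without an SS partner, as was Dock2, a Rac activator of immune cells, with 11.2 in CC and 5.69 in CS. Vps45, a vesicle sorting gene, had 8.34 in CC and 4.17 in SC, and Them7 had 7.61 in CC and 6.02 in CS. Nrxn3, a presynaptic adhesion gene of the neurexin family, had a CC peak of 7.25 (chr12:88813579-88813646, mm10), 18.2 kb from the start of its transcript, with no peak at that place in the other 3 lists. The SS gene body peaks without a CC partner were led by the same genes as for CS, with Sim2 (12.8 in SS and 4.68 in CS) in place of Cacna1a.

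CC against SC sets cocaine given both times beside cocaine given after saline. Of 211 CC gene body peaks, 53 (25.1%, interval 19.4 to 31.5%) had no overlapping SC peak, where 10.5% of all CC peaks had none. The share was 23.8% for intergenic CC peaks and 29.5% for CC promoter peaks 1 to 3 kb from a start. Of 3228 SC gene body peaks, 3089 (95.7%, 94.9 to 96.4%) had no overlapping CC peak, where 83.9% of all SC peaks had none. At equal list length 12.8% of CC gene body peaks and 26.1% of all CC peaks had an SC partner, against 74.9% and 89.5% with the whole lists, and CC peaks overlapped 16.2% of SC gene body peaks and 22.4% of all SC peaks, against 4.31% and 16.1%. Dock2, Hira, Pcnx2, Efna5 and Sfi1 led in CC, and Gata4, Tal1, Klhl31, Vgll2 and Pax3 led in SC.

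CC against CS sets a later injection of cocaine beside one of saline, both after cocaine. Here the gene body peaks did not lack a partner more often than the lists as a whole: 129 of 211 CC gene body peaks (61.1%, interval 54.2 to 67.8%) had no overlapping CS peak, where 68.1% of all CC peaks had none. In CS, 235 of 318 (73.9%, 68.7 to 78.6%) had no overlapping CC peak, where 76% of all CS peaks had none. Among peaks with −log10 q of 5 or more, 63.4% of 82 CC gene body peaks had a CS partner, against 34.1% of all such CC peaks, and 53.5% of 99 CS gene body peaks had a CC partner, against 28.7%. Vps45, Jarid2, a subunit of Polycomb repressive complexes (7.61 in CC, 7.68 in SC and 7.55 in SS), Nrxn3, Srsf4, a splicing factor (6.89), and Nkx6-3 (6.89) were the strongest CC peaks without a CS partner. Jarid2 was not without a peak in CS: it held 2 CC peaks within 0.44 kb, the stronger of fold 21.4, and 1 CS gene body peak. Phactr2, Dock3, Sp140, Zfp600 (7.36) and Col23a1 (7.03) were the strongest CS peaks without a CC partner.

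Many shared CC and CS gene body peaks lay at nearly the same bases. The middles of overlapping CC and CS peaks were a median of 6.75 bp apart in 82 gene body pairs, and 46 of them (56.1%, interval 44.7 to 67.0%) were within 10 bp. For 1195 pairs of promoter peaks within 1 kb the median was 55.0 bp, and 13.1% (11.3 to 15.2%) were within 10 bp. Intergenic pairs lay between, with a median of 17.25 bp over 156 pairs and 40.4% (32.6 to 48.5%) within 10 bp, an interval that overlaps that of gene body pairs. Strong peaks carried much of the closeness: of the 26 gene body pairs with a CC fold of 10 or more, 23 were within 10 bp, and of the other 56 pairs 23 were. Against the wide SS peaks, the middle of a CS gene body peak was a median of 117 bp away, while CS promoter peaks were 236.5 bp away. CC gene body peaks were 109 bp from the middle of the SS peak and 108 bp from that of the SC peak, with 230.5 and 226 bp for promoter peaks. Intergenic peaks resembled gene body peaks here, at 122.5 bp for CS against SS and 109.5 bp for CC against SS. Between SC and SS the gene body offset was 69.5 bp and that of promoter peaks 53.0 bp. Gene body and promoter peaks had similar widths within these lists, with medians of 104 and 111 bp in CS and 98 and 108 bp in CC.

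**Figure D4:**
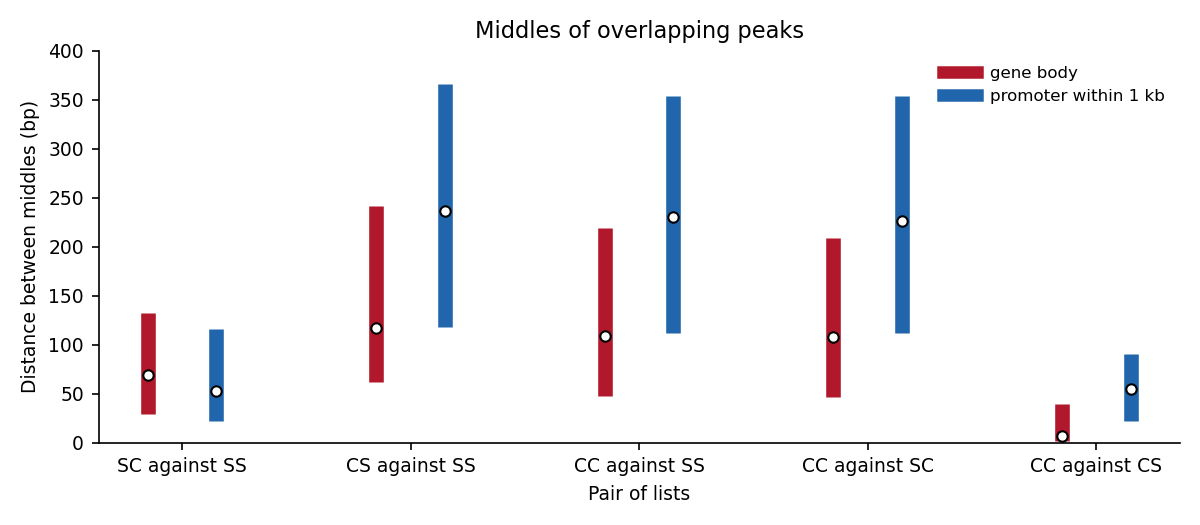
Distance in bp between the middles of overlapping peaks for 5 pairs of lists, for gene body peaks and promoter peaks within 1 kb (dot, median; bar, middle quartiles). The CC and CS gene body pairs have a median of 6.75 bp, against 55.0 bp for their promoter pairs.

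A small set of gene body peaks that were very strong in CS or CC was present in all 4 lists. Peaks strong in SS mostly were not: 8 of 61 SS gene body peaks with a fold of 10 or more (13.1%) had a partner in each other list. Of SS peaks of all classes at that fold, 13.6% had one. Of 27 CS gene body peaks with a fold of 10 or more, 22 had a partner in each other list, and of 26 such CC peaks 22 did. Among peaks of all classes at that fold, 72.0% of 100 in CS and 76.1% of 88 in CC had a partner in each other list. High fold in CS or CC thus went with presence in all lists in other classes too. Below that fold the gene body counts were 34 of 291 in CS (11.7%) and 34 of 185 in CC (18.4%). At any fold, 17.6% of CS gene body peaks had a partner in each other list, where 21.0% of all CS peaks had one. In CC these shares were 26.5% of gene body peaks and 27.9% of all peaks. Chl1, a neural adhesion molecule of the L1 family, had a fold of 13.7 in SC, 30.9 in CS, 33.0 in CC and 14.1 in SS, at 138 kb from the start (chr6:103649056-103649289 in CC, mm10). Its peak was 684 bp wide in SC, 239 bp in CS, 233 bp in CC and 692 bp in SS. Lars2, the mitochondrial leucyl-tRNA synthetase, had 10.3 in SC, 30.8 in CS, 30.3 in CC and 13.7 in SS, and its peak lay at the very end of the transcript, 7.26 kb from the start of a 7.11 kb transcript. Fbxw4, an F-box protein gene, had 9.12 in SC, 30.4 in CS, 28.3 in CC and 8.90 in SS. Filip1l had 13.1 in SC, 26.7 in CS, 28.5 in CC and 13.5 in SS.

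Cdk8 had 12.9 in SC, 23.2 in CS, 25.6 in CC and 15.7 in SS. Cdk5rap2, a centrosomal gene, had 9.72 in SC, 24.8 in CS, 23.2 in CC and 9.19 in SS. At these 6 places the CS and CC folds lay between 23.2 and 33.0 and those of SC and SS between 8.90 and 15.7. All 6 were named as strongest peaks of CS or CC, so high folds in those lists follow from the choice. At 5 other places, taken from the 10 strongest SS peaks shared by all lists and so ranked by SS fold, the higher folds were those of SC and SS. Neither set measures change between lists. Zfp697 had 14.8 in SC, 4.44 in CS, 6.18 in CC and 12.6 in SS. Trim14, an antiviral signalling gene, had 15.4 in SC, 4.25 in CS, 5.24 in CC and 12.5 in SS. Kcnk12, a potassium channel gene, had 12.6 in SC, 4.30 in CS, 5.44 in CC and 10.1 in SS. Npffr1, a neuropeptide FF receptor, had 13.4 in SC, 4.88 in CS, 4.54 in CC and 9.45 in SS, and Ldb3, a muscle Z-disc gene, had 12.9 in SC, 4.68 in CS, 4.14 in CC and 9.28 in SS. In all, 63 of 2870 SS gene body peaks (2.20%, interval 1.69 to 2.80%) had a partner in each other list, where 8.26% of all SS peaks and 2.70% of intergenic SS peaks had one.

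The widest gene body peak was 1757 bp in SC, 606 bp in CS, 591 bp in CC and 1699 bp in SS. Igf1r, the receptor of insulin-like growth factor 1, held the widest in SC, and its SS peak was 1338 bp wide. Disc1, a neurodevelopmental scaffold gene, had 1658 bp in SC, 73 bp in CS, 67 bp in CC and 1642 bp in SS. Nkpd1 had 604 bp in SC and held the widest SS peak. Synpo2l had 1494 bp in SC and 1560 bp in SS, and Maml3, a Notch coactivator, 1365 bp in SC and 1564 bp in SS. Pi16 (1685 bp in SC and 1126 bp in SS), Tango6 (1488 bp in SC and 1014 bp in SS) and Fcrlb (1393 bp in SC and 1501 bp in SS) had the other widest peaks.

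Host genes numbered 2254 in SC, 258 in CS, 172 in CC and 2195 in SS, 3024 in all and 69 in every list. SC and SS shared 1457 hosts, 64.6% of the SC hosts and 66.4% of the SS hosts. Sharing a host did not require sharing the place: of 1206 genes holding SC peaks without an SS partner, 419 also hosted an SS gene body peak. CS shared 225 hosts with SS, 87.2% of CS hosts and 10.3% of SS hosts, and CC shared 150 with SS, 87.2% of CC hosts and 6.83% of SS hosts. CC shared 149 hosts with SC (86.6% of CC and 6.61% of SC hosts) and 83 with CS (48.3% of CC and 32.2% of CS hosts). A promoter peak within 1 kb of the same gene was present for 62.2% of SC hosts, 14.0% of CS hosts, 13.4% of CC hosts and 57.2% of SS hosts. The lists differed in length here too, with 14268 promoter peaks within 1 kb in SC, 5091 in CS, 3878 in CC and 15035 in SS. Shares over all genes were not computed for these values or for the host sharing above, so whether either is particular to gene body hosts is not known. Protein-coding genes hosted 84.6% of the SC gene body peaks, 81.4% of CS, 82.0% of CC and 79.5% of SS, and long intergenic RNA genes hosted 309 peaks in SC, 36 in CS, 16 in CC and 374 in SS.

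Several peaks in the same host were common in SC and SS. SC had 586 hosts (26.0%) with 2 or more gene body peaks, CS 31, CC 21 (12.2%) and SS 442 (20.1%). Maml3 held 12 peaks in SC and 12 in SS, Park2, which encodes the ubiquitin ligase parkin, held 12 in SC and 10 in SS, and Cdh13, an atypical cadherin, 11 in SC and 7 in SS. Fgfr2, a fibroblast growth factor receptor, had 5 in SC and 8 in SS, and Trpm3, a cation channel, had 7 in both. Lsamp, an adhesion molecule of limbic circuits, had 9 in SC and 3 in SS, and Arhgap26 had 9 in SC and 5 in SS. Chosen after their values were seen, Camkmt held 9 peaks in SC and 1 in SS, Msra 9 in SC and 1 in SS, Snd1 8 in SC and 1 in SS, and Cdh4 8 in SC and 2 in SS. Their SC peaks were weak, the 9 in Msra having folds of 2.28 to 2.98 over 268 kb.

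CS and CC peaks clustered in other hosts. Sfi1, a centrosomal gene, held 7 peaks in CS and 8 in CC within 49.3 kb, with folds of up to 16.8 and 18.1, against 2 in SC and 2 in SS. Zfp600, a member of a family of closely similar zinc finger genes on chromosome 4, held 6 in CS and 6 in CC within 7 kb, and 2 in SC and 2 in SS. Tcte2 held 5 in SC, 7 in CS, 3 in CC and 3 in SS, and Tmem267 held 3 in SC, 7 in CS, 5 in CC and 2 in SS. The sources used here do not say how reads that match several places in the genome were treated, so assignment within such families is uncertain. Chromosome 4 held 6.41% of SC gene body peaks, 10.1% of CS, 15.6% of CC (interval 11.0 to 21.3%) and 7.11% of SS, while it held 7.37% of all CC peaks.

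Long genes hosted gene body peaks far more often than short ones. Of 3024 host names, 2375 (78.5%) matched a protein-coding RefSeq gene on chromosomes 1 to 19, and of 20665 such genes 8.89% hosted a peak in SC, 0.992% in CS, 0.658% in CC and 8.17% in SS. Under 10 kb the share was 1.23% in SC, 0.163% in CS, 0.163% in CC and 1.44% in SS. Over 300 kb it was 55.0% (interval 50.6 to 59.3%) in SC, 6.57% in CS, 3.38% in CC and 52.0% (47.6 to 56.3%) in SS. Between 100 and 300 kb SC exceeded SS, with 32.2% (30.1 to 34.5%) against 25.6% (23.6 to 27.7%), and the counting intervals did not overlap. In the 3 shorter classes the SC and SS intervals overlapped. Median host length was 91.6 kb in SC, 90.5 kb in CS, 65.1 kb in CC and 79.9 kb in SS, against 17.5 kb for all these genes.

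**Figure D5:**
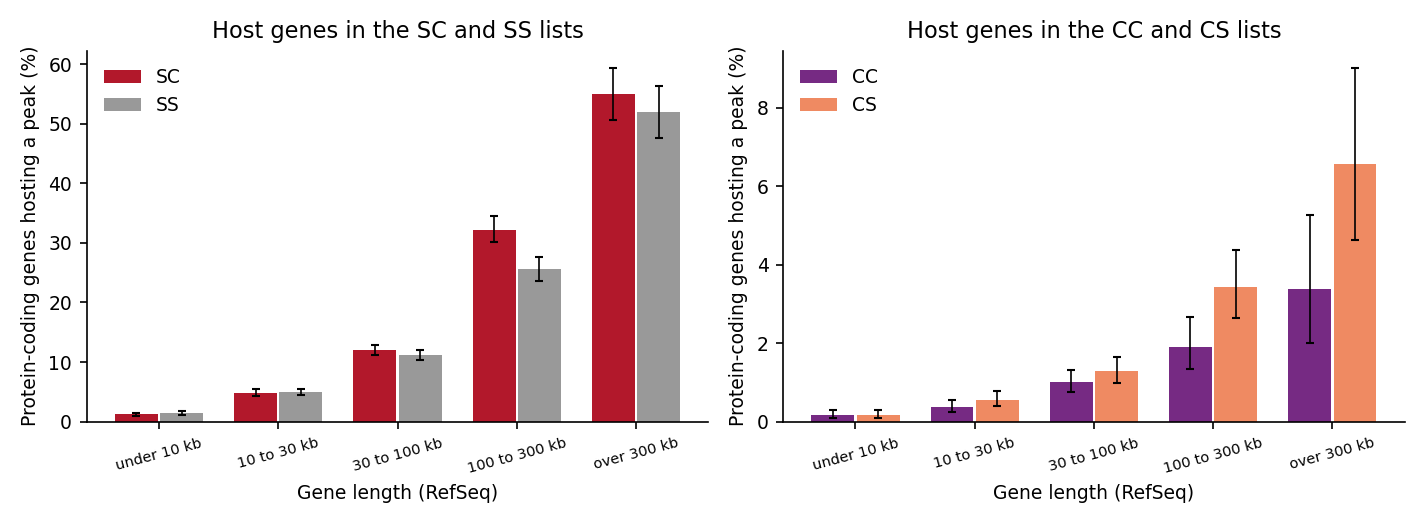
Percentage of protein-coding RefSeq genes on chromosomes 1 to 19 that host at least 1 gene body peak, in 5 classes of gene length, for SC and SS (left) and CC and CS (right), with 95% exact binomial intervals. The share is higher in each longer class of every list and reaches 55.0% in SC and 52.0% in SS over 300 kb. The vertical scales of the panels differ.

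The median distance of a gene body peak from the start was 30.2 kb in SC, 24.8 kb in CS, 18.1 kb in CC and 27.1 kb in SS. How far host length accounts for this distance was not tested. The farthest peak lay 4.29 Mb into the transcript Gm20388 in SC and in SS. In transcripts of 60 kb or more, SC peaks were spread evenly, with 20.2% in the first of 5 equal segments and 20.2% in the last. The 153 CS peaks had 25.5% in the first and 25.5% in the last, the 81 CC peaks 28.4% in the first and 27.2% in the last, and the SS peaks 21.8% in the first and 20.0% in the last.

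Gene lists are read against these shares, since most neuronal lists hold long genes. Among protein-coding genes of 100 kb or more, 37.5% hosted a peak in SC, 4.15% in CS, 2.25% in CC and 31.7% in SS. Of 34 synaptic adhesion genes, 21 hosted a gene body peak in SC, 2 in CS, 2 in CC and 18 in SS, and among the 26 of 100 kb or more these were 20 in SC, 2 in CS, 2 in CC and 17 in SS. Their median length was 767 kb. Their 58 SC peaks included 25 with an SS partner, and 25 of their 37 SS peaks had an SC partner. Tenm2, a teneurin, had a fold of 5.28 in SC and 4.55 in SS at 898 kb. Lsamp had 4.82 in SC and 3.60 in SS at 984 kb, and Tenm3 had 3.59 in SC and 4.30 in SS. Cntnap5a, Cadm1 and Negr1, all adhesion genes of neurons, hosted peaks in SC and not in SS.

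Postsynaptic scaffolds were hosts for 14 of 24 members in SC, 2 in CS, 2 in CC and 10 in SS. Among the 13 long members 10 hosted in SC and 8 in SS. Gphn, the gephyrin scaffold of inhibitory synapses, had folds of 5.92 in SC, 17.1 in CS, 17.0 in CC and 5.90 in SS. Dlgap2, a scaffold of excitatory synapses, had 6.45 in SC, 7.03 in CS, 7.61 in CC and 3.97 in SS. Ctnnd2, a catenin of synapses, had 13.4 in SC and 11.8 in SS at 474 kb from the start. Shank2, Shank3, Homer1, Magi2 and Agap2 hosted peaks in SC and not in SS, with folds of 2.65, 4.56, 2.91, 3.55 and 2.83, and Dlg1 in SS and not in SC. Presynaptic release machinery had hosts in 7 of 23 in SC, none in CS, none in CC and 4 in SS (4 and 3 of the 9 long members), with Unc13a and the active zone genes Rims2 (4.56 in SC and 4.52 in SS), Erc2 and Syn3 in both SC and SS.

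Glutamate receptor genes hosted peaks for 12 of 25 members in SC, 1 in CS, 0 in CC and 9 in SS. Among the 17 long members these were 8 in SC and 6 in SS, near the 37.5% (SC) and 31.7% (SS) of all long genes. Grik5, a kainate receptor subunit, had 8.67 in SC and 7.67 in SS at 61.6 kb from the start. Grik4 had 5.34 in SC and 5.68 in SS, and Grin2d, an NMDA receptor subunit, 3.39 in SC and 5.55 in SS. Grin2c, another NMDA receptor subunit, was a host in SC alone by name, with a fold of 13.7, but its peak overlapped an SS peak of fold 12.3 that the authors' annotation gave to the promoter of a small RNA gene 2921 bp away. Such changes of class were few: 10 of the 1613 SC gene body peaks with an SS partner had partners of other classes only. Grm8 hosted the CS peak, of fold 4.35. GABA receptor genes hosted peaks for 2 of 14 members in SC, Gabrb1 and Gabrg3, both among the 7 long members, and for none in CS, CC or SS.

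Potassium channel genes were hosts for 12 of 29 members in SC, 0 in CS, 1 in CC and 4 in SS. The 9 that hosted in SC and not in SS included Kcna2, Kcnd3, Kcnh7, Kcnip4, Kcnj6, Kcnk2, Kcnma1 and Kcnn3, with folds from 2.73 in Kcnma1 to 4.56 in Kcnj6, and Kcnd2 hosted in SS alone. Of the 18 SC peaks in this list 2 had an SS partner, and of the 8 SS peaks 2 had an SC partner, where 1613 of all 3228 SC gene body peaks and 56.0% of all SS gene body peaks had one. Kcnq1 had 3.88 in SC and 4.93 in SS. The SC count of long members, 10 of 16, stands against 37.5% of all long genes, and the SS count, 4 of 16, against 31.7%. Calcium and sodium channel genes were hosts for 7 of 25 in SC, 1 in CS, 0 in CC and 7 in SS, with 6 in both SC and SS, and all 7 of each list were among the 17 long members. Cacna1a was the strongest, and Scn8a, an axonal sodium channel, had 3.62 in SC, 4.35 in CS and 3.87 in SS.

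Markers of striatal neurons differed in length and in hosting. Of 16 genes expressed by all medium spiny neurons, 6 hosted in SC, 0 in CS, 0 in CC and 2 in SS. All of these were among the 9 members of 100 kb or more, so that 6 of 9 in SC and 2 of 9 in SS stand against 37.5% (SC) and 31.7% (SS) of all long genes. Foxp1, Meis2, Rarb and Ryr3 hosted in SC and not in SS, with folds of 3.09, 3.19, 3.52 and 3.66. Gnal, the G protein subunit coupled to dopamine receptors, held 2 peaks in SC and 1 in SS. The stronger SC peak (2.63) had no SS partner, while the SS peak (3.57) was overlapped by another SC peak. Among 9 markers of D1 neurons only Ebf1 hosted, in SS (4.26), and among 8 of D2 neurons only Ptprm, in SC (4.27) and SS (3.19) at different places. No striatal interneuron marker of 14 hosted a peak in any list. These 3 lists hold mostly short genes, with median lengths of 11.4 kb for D1, 11.6 kb for D2 and 11.3 kb for interneuron markers, and of all genes of 10 to 30 kb 4.83% hosted in SC and 4.93% in SS. The hosts among them were long. Ebf1, of 390 kb, is 1 of the 2 D1 markers of 100 kb or more, and Ptprm, of 688 kb, is the 1 such D2 marker. Dopamine and cAMP signalling genes were hosts for 7 of 23 in SC, 1 in CS, 0 in CC and 6 in SS, and for 6 (SC) and 5 (SS) of the 13 long members. Drd3, the dopamine receptor of ventral striatum, had 3.76 in SC and 4.29 in SS in overlapping peaks, and Pde4d, a cAMP phosphodiesterase, held 4 peaks in SC, 1 in CS and 6 in SS. Of 24 immediate early genes, with a median length of 6.36 kb, only Homer1, the 1 member of 100 kb or more, hosted, in SC alone, where 1.23% of all genes under 10 kb hosted in SC.

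Markers of other cells of the tissue were hosts as follows, where 8.89% of all protein-coding genes hosted in SC, 0.992% in CS, 0.658% in CC and 8.17% in SS: 2 of 8 astrocyte markers in SC and 1 in SS, 0 of 10 oligodendrocyte and precursor markers in SC and 2 in SS (Mbp and Cspg4), 1 of 10 microglial markers in SC, 1 in CS and 1 in SS, and 2 of 8 endothelial markers in SC, 1 in CS, 1 in CC and 2 in SS. The microglial host was Cx3cr1, the fractalkine receptor, with 4.49 in SC, 4.35 in CS and 3.76 in SS. These peaks lay 40.7 kb (SC and CS) and 40.6 kb (SS) from the start of the annotated transcript, while the RefSeq gene is 19.6 kb long. The endothelial host in every list was Flt1, a receptor of vascular growth factor, with 5.24 in SC, 9.03 in CS, 7.98 in CC and 4.74 in SS. Gfap, the astrocyte filament gene, had 2.91 in SC and 3.59 in SS. Chromatin peaks of bulk tissue do not tell which cells carried them.

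Axon guidance genes were hosts for 12 of 36 in SC, 2 in CS, 2 in CC and 15 in SS. Among the 28 long members 11 hosted in SC and 14 in SS, against 37.5% (SC) and 31.7% (SS) of all long genes, so the SC count was near that of long genes in general. Unc5a, a netrin receptor, had 12.2 in SC and 11.0 in SS, Epha3, an ephrin receptor, 5.19 in SC, 4.10 in CS, 5.35 in CC and 5.61 in SS, and Ephb2 5.31 in SC and 5.13 in SS. Ntn4, Sema3c, Sema5a and Nrp2 hosted in SS and not in SC, and Dcc in SC and not in SS. Cytoskeleton and microtubule genes of neurons were hosts for 10 of 24 in SC, 0 in CS, 0 in CC and 7 in SS, and for 9 (SC) and 6 (SS) of the 18 long members. Celf4 had 10.3 in SC and 9.94 in SS, and Map2, the dendritic microtubule protein, 3.01 in SC with no SS peak.

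Developmental regulators had most of their SC and SS peaks at shared places. Of 73 developmental transcription factors outside the Hox clusters, 11 hosted in SC, 1 in CS, 0 in CC and 12 in SS, and 12 of their 13 SC peaks had an SS partner, where 1613 of all 3228 SC gene body peaks did. Pax7, a muscle and neural crest factor, had 13.7 in SC and 6.87 in SS, Tbx2 had 10.6 in SC and 4.92 in SS, Pax5, a B cell factor, had 6.83 in SC and 6.24 in SS, and Sim2 had 15.2 in SC, 4.68 in CS and 12.8 in SS. Of 39 Hox genes Hoxc9 was the only host, with 14.3 in SC and 7.93 in SS. Notch, Wnt, BMP and TGF-beta genes were hosts for 10 of 40 in SC, 0 in CS, 0 in CC and 11 in SS (4 of the 10 long members in SC and 6 in SS), and 10 of 12 SC peaks had an SS partner. Gli2, a Hedgehog effector, had 11.4 in SC and 8.69 in SS, Wnt3 had 10.8 in SC and 9.97 in SS, and Wnt3a had 8.96 in SC and 5.85 in SS. The strength of these peaks moves with their overlap, as in the groups of SS peaks by fold above, and its part was not tested.

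Chromatin-modifying enzymes were hosts for 13 of 52 in SC, 1 in CS, 0 in CC and 6 in SS. Among the 16 long members 8 hosted in SC and 4 in SS, against 37.5% (SC) and 31.7% (SS) of all long genes. Kat2b, Kat6a, Dot1l, Kdm2b, Dnmt3a and Smarca4 were among those that hosted in SC and not in SS, with a fold of 2.60 in Smarca4, and no member hosted in SS alone. Chd8, a chromatin remodeller, had 5.15 in SC and 4.35 in SS, and Arid1b had 4.78 in SC and 3.77 in SS. Hdac9 had 3.39 in SC, 4.35 in CS and 4.26 in the strongest of its 3 SS peaks, which had no partner. Its SC and CS peaks each overlapped another SS peak. Imprinted genes and their hosts had gene body peaks in 9 of 45 in SC, 1 in CS, 0 in CC and 7 in SS (5 of the 8 long members in SC and 4 in SS). Zdbf2 had 9.02 in SC and 7.82 in SS, H13 had 7.75 in SC and 5.79 in SS, and Usp29 had 3.52 in SC and 4.09 in SS. Airn, the noncoding transcript across Igf2r, hosted in SS (4.30) and not in SC. None of the 22 genes for H2A.Z and its exchange complexes and none of the 73 cytosolic ribosomal protein genes hosted a peak in any list. The H2A.Z list has a median length of 19.4 kb, and of all genes of 10 to 30 kb only 4.83% hosted in SC and 4.93% in SS. Of all genes under 10 kb, 1.23% hosted in SC and 1.44% in SS. The ribosomal protein genes have a median length of 3.18 kb, barely past the 3000 bp limit that defines the class.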

How the data were processed

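H2A.Z was profiled by chromatin immunoprecipitation and sequencing in 12 samples, 3 per condition, and conditions were taken from sample titles. The authors deposited 1 annotated peak list per condition. Reads were processed with cutadapt, HISAT, SAMtools and MACS2 on mm10, per the submitters' processing notes. Their versions and settings, the control library and any pooling of samples are not stated there. Per the file headers, the authors list for each peak a fold enrichment, which is a linear ratio over background. The deposited q-value is linear too, per the file headers. Region class, gene, transcript and distance are the authors' deposited annotation; each peak has 1 gene, and width is end minus start as listed. Whether starts count from 0 or 1 is not stated.

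Here, gene body peaks on chromosomes 1 to 19 were selected, and 2 peaks counted as partners when they shared at least 1 bp, computed with Python 3.11.15 and pandas 2.3.3. The overlap code was tested on simulated intervals and against bedtools 2.31.1. Intervals are exact 95% binomial intervals (scipy 1.17.1). Sequencing depth was not analysed here. Start windows, gene lengths and symbols came from RefSeq tables of assembly GRCm38.p6, with no windows used on chromosome 18. No column belonged to samples outside the series (0 columns).

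Named hosts are those of the 10 strongest SS gene body peaks and the 5 strongest of SC, CS and CC, the 10 strongest without a partner in each direction against SS (5 where CC was set against SC or CS), the 10 strongest SS peaks shared by all lists, the 5 hosts with most peaks and the 5 widest peaks in SC and SS, and up to 4 members of each of 26 gene lists, plus members counted in 1 list only. Names starting Gm or ending Rik and similar clone names were skipped. Some hosts that the rule names are not reported here. Members, gene lists and tests were chosen with earlier results of these data known. Alternatives were peaks with −log10 q of at least 5, lists of equal length, overlap of 50% of the narrower peak, and gene body partners only. Equal length meant 4670 peaks for shares and widths, and for overlap the length of the shorter list of each pair.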

Additional observations from a re-analysis of the deposited data

Results flagged for a closer look

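Chromosome X was outside the comparisons, which used chromosomes 1 to 19, and it held gene body peaks as well. There were 31 in SC among 515 peaks of that chromosome (6.02%, exact interval 4.13 to 8.44%), 10 of 29 in CS (34.5%), 7 of 17 in CC (41.2%) and 16 of 400 in SS (4.00%, 2.30 to 6.41%). The SC number was singled out because it lies above the 16 of the saline list in data not otherwise used. The strongest in every list lay in Cldn34d, a claudin gene, with a fold of 15.6 in SC, 31.9 in CS, 34.7 in CC and 14.2 in SS. The sex of the animals is not given in the labels, and the difference between lists was not tested.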

How the results depend on the processing

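Of 56 recomputed values, 30 stayed within the exact interval of the reported value (host counts within 1.5 times) and 26 moved beyond it. Requiring overlap of 50% of the narrower peak or gene body partners only moved none. A middle over 3000 bp from the start could move none, since every gene body peak already lay beyond that limit. Equal length left CC, the shortest list, uncut, so its share and width could not move either. These values are among the 30 and say nothing about stability. With −log10 q of at least 5, the gene body share was 13.7% in SC, 9.74% in CS and 9.68% in CC, the median SC width 493 bp, and hosts numbered 71 in CS and 59 in CC. Overlap then was 1.83% of SS gene body peaks by CS and 61.6% of CS by SS, 1.61% of SS by CC and 64.6% of CC by SS, 1.45% of SC by CC and 63.4% of CC by SC, and 53.5% of CS by CC and 63.4% of CC by CS. Over peaks of all classes the same shares were 3.37% and 84.7%, 2.84% and 85.2%, 2.88% and 81.7%, and 28.7% and 34.1%. With lists of equal length, the gene body share was 2.78% in SC and 2.70% in SS, and median widths were 778 bp in SC and 836 bp in SS. Overlap then was 46.7% of SC gene body peaks by SS, 25.1% of SS by CS and 15.7% of CS by SS, 18.3% of SS by CC and 14.2% of CC by SS, 16.2% of SC by CC and 12.8% of CC by SC, and 31.8% of CS by CC. Over peaks of all classes these were 78.5%, 29.7% and 35.3%, 23.1% and 27.0%, 22.4% and 26.1%, and 25.6%. By construction, shorter lists hold fewer possible partners. No paired analysis was possible because the files give values per condition and not per sample, and for the same reason no sample could be left out. List length, peak width and q-value differ with condition here, so their part cannot be told apart from that of treatment.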
